A study of Rattus norvegicus with 4 samples.

Results

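Aquaporins are membrane channels, and 7 of their genes (Aqp1, Aqp3, Aqp4, Aqp7, Aqp8, Aqp9 and Aqp11) were followed in rat liver. They were chosen by gene symbol, and each had 1 row among the 21791 rows of the deposited normalized table, which covers 21480 genes. The samples were liver RNA of male Wistar rats aged 4 months on Illumina expression arrays. Offspring of control pregnancies and offspring undernourished before birth, labelled FR30, were kept on either standard or high-fat food. This gives 4 groups: control on standard diet, control on high-fat diet, FR30 on standard diet and FR30 on high-fat diet. Each group had 1 deposited sample, so no difference between groups could be tested and no p-value of a difference is given. The labels used here do not state the degree of undernutrition, what the diets held, or whether a sample came from 1 animal or a pool.

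Aquaporins carry water along osmotic gradients, and those called aquaglyceroporins (Aqp3, Aqp7 and Aqp9 here) also carry glycerol. In fasting, fat cells release glycerol through AQP7 and the liver takes it up through AQP9 on the blood-facing side of hepatocytes, where it serves glucose formation. AQP8 lies in the bile-facing membrane and in mitochondria of hepatocytes, and AQP1 in the membranes of endothelial cells, bile duct cells and red blood cells.

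The promoter windows of Aqp1, Aqp8 and Aqp9 are shown because Aqp1 had the largest difference among the aquaporins detected in all samples, and Aqp8 and Aqp9 had higher signals on the high-fat diet in both prenatal groups. Each is the 250 bases before the gene's start in RefSeq on the GRCr8 assembly, at chr4:85812534-85812783 (plus strand), chr1:187424193-187424442 (plus strand) and chr8:80718189-80718438 (minus strand). Capitals mark matches to any of 6 motifs searched on both strands.
Aqp1: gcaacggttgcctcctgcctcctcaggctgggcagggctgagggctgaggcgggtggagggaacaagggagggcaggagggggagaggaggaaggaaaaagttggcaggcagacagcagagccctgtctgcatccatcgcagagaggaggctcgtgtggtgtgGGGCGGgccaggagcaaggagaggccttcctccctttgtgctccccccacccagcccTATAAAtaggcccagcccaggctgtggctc
Aqp8: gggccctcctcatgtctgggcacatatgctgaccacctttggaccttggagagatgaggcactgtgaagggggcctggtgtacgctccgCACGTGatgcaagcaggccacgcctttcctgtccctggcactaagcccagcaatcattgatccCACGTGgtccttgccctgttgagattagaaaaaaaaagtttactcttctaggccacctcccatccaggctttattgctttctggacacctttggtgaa
Aqp9: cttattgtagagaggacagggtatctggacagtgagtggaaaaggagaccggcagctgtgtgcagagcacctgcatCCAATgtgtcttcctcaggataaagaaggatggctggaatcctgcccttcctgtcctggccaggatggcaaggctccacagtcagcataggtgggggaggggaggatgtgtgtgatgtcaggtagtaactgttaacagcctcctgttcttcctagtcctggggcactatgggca

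The motifs were TATAAA (the TATA box), CCAAT (bound by the factor NF-Y), GGGCGG (an Sp1 site), CACGTG (an E-box, which reads the same on both strands), TGTTTAC (a forkhead site) and AGGTCA (a nuclear receptor half-site). In the Aqp1 window, TATAAA began 30 bases and GGGCGG 87 bases before the start. CACGTG was found in the Aqp8 window at 161 and at 98 bases before the start. The Aqp9 window held CCAAT at 174 bases before the start. No matches overlapped in these windows. Of 33469 promoter windows of the same length, 12.9% held TATAAA and 34.0% held CCAAT. The share was 30.5% for GGGCGG and 5.59% for the motif CACGTG, and it was 3.21% for TGTTTAC and 14.1% for the motif AGGTCA. GC content was 65.2% for Aqp1, 53.6% for Aqp8 and 54.0% for Aqp9. RefSeq promoter entries were matched for 6 of the 7 genes, and Aqp7 was not among them.

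Signals below are the authors' normalized intensities, followed by the deposited standard deviation (STDEV). What was measured repeatedly to give a STDEV, and how often, is not stated in the labels or headers, so no n can be printed. Signals still include the background, which lay between 153 and 154 on each sample as the mean of the negative controls implied by the detection p-values. A gene counted as detected at an authors' detection p-value under 0.05, which held for between 8996 and 9220 genes per sample. The gap between samples is given in units of the sum of their STDEVs, so a value under 1 means that the intervals of 1 STDEV overlap. Log2 differences and folds were taken after background correction and quantile normalization, and a gene was counted as higher or lower at 1.5-fold. Levels are compared between samples of 1 probe and never between probes.

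Aqp1, a water channel, was higher in the FR30 sample than in the control sample on both diets, by 1.90-fold on the standard diet and 1.89-fold on the high-fat diet. Its signal was 393 ± 21.1 in control standard, 317 ± 11.5 in control high-fat, 623 ± 114 in FR30 standard and 474 ± 5.28 in FR30 high-fat. Both FR30 signals lay above both control signals, and within each prenatal group the high-fat signal was the lower. All neighbours in the order control high-fat, control standard, FR30 high-fat, FR30 standard were apart by more than their summed STDEVs.

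The FR30 difference of Aqp1 was 0.93 log2 units on the standard diet, and 1.17% of the 8457 genes detected in all 4 samples had a difference as large there. Its gap was 1.70 summed STDEVs, since the STDEV in FR30 standard was 18.3% of the signal. On the high-fat diet the difference was 0.92 log2 units, 0.698% of these genes had one as large, and the gap was 9.38 summed STDEVs. Without the background correction the deposited signals stood 1.59-fold and just under 1.5-fold apart. In a bulk sample, more cells that express Aqp1 and more Aqp1 RNA per cell cannot be told apart.

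The high-fat diet went with a lower Aqp1 signal, by 1.43-fold in control offspring and 1.44-fold in FR30 offspring, both short of 1.5-fold. The gaps were 2.33 and 1.25 summed STDEVs. The diet difference was almost the same in both prenatal groups on this scale, at -0.52 and -0.53 log2 units.

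The authors also deposited a non-normalized table, whose identifiers did not belong to its values, so its rows were put to genes by row order. There Aqp1 stood at 369, 319, 475 and 547 in the same sample order, before any scaling between samples. After the same processing the FR30 differences were 1.64-fold on the standard and 1.88-fold on the high-fat diet. The diet difference was 1.43-fold lower in control and 1.25-fold lower in FR30 offspring.

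Only 14 of 8457 genes, 0.166%, were at least 1.5-fold higher in the FR30 sample on both diets, and Aqp1 was the sole aquaporin among them. Both prenatal comparisons use different samples. The non-normalized table had 15 of 7904 genes, 0.190%, that met the same rule, and 13 genes including Aqp1 met it in both tables.

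**Figure D1:**
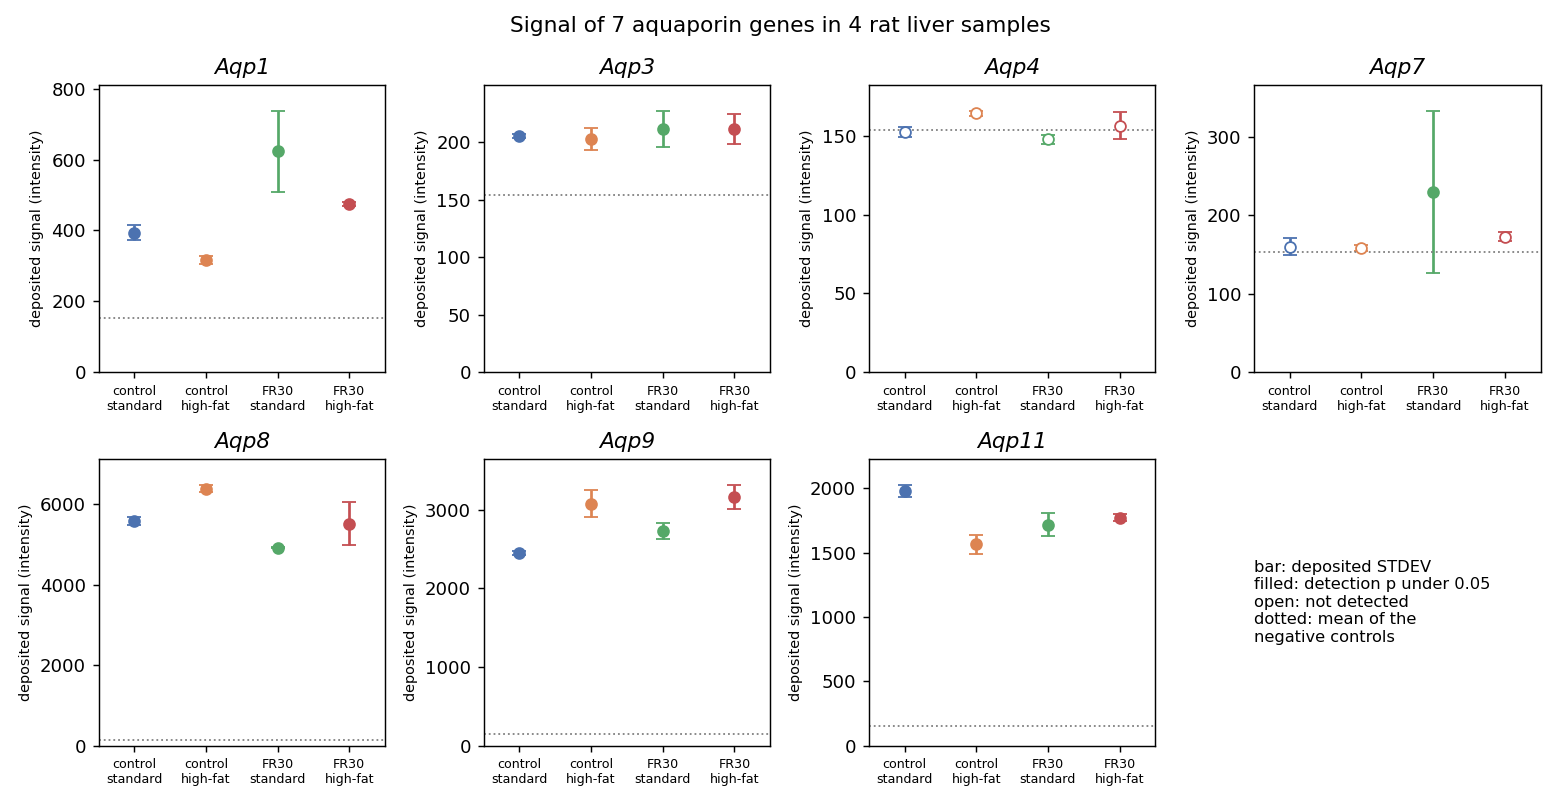
Deposited signal of each listed aquaporin (intensity, linear axis from 0) in the 4 liver samples, 1 point per sample with the deposited STDEV as bar, filled where detected, and the negative control mean of about 153 dotted. Aqp1 runs from 317 in control high-fat to 623 in FR30 standard, Aqp7 is detected in FR30 standard only and with a wide bar, and Aqp8, Aqp9 and Aqp11 each stay within a 1.31-fold span.

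Aqp8, which carries water, ammonia and hydrogen peroxide in hepatocytes, had higher signals on the high-fat diet and lower signals in FR30, in each case by less than 1.5-fold. Its signal was 5585 ± 99.6 in control standard, 6393.5 ± 95.6 in control high-fat, 4925 ± 11.1 in FR30 standard and 5515 ± 535 in FR30 high-fat. The lowest and highest samples differed by 1.31-fold, and control standard and FR30 high-fat did not differ beyond their summed STDEVs.

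The high-fat signal of Aqp8 was 1.16-fold the standard one in control offspring, with a gap of 4.14 summed STDEVs. In FR30 offspring it was 1.11-fold, and the signals were apart by slightly more than the summed STDEVs. The FR30 signal was 1.13-fold lower than control on the standard diet and 1.18-fold lower on the high-fat diet, with gaps of 5.96 and 1.39. These are small differences beside those of other genes: 35.9% of genes detected in all samples differed as much with the diet in control offspring and 23.1% as much between the high-fat samples.

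Aqp9, the glycerol and urea channel through which hepatocytes take up glycerol, was higher on the high-fat diet in both prenatal groups, by less than 1.5-fold. Its signal was 2455 ± 23.4 in control standard, 3076 ± 172 in control high-fat, 2735 ± 101 in FR30 standard and 3164 ± 154 in FR30 high-fat. Both high-fat signals lay above both standard-diet signals, and they did not differ from each other beyond their summed STDEVs.

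The diet difference of Aqp9 was 1.27-fold in control offspring and 1.17-fold in FR30 offspring, with gaps of 3.18 and 1.68 summed STDEVs. The FR30 sample was 1.11-fold higher than control on the standard diet, with a gap of 2.26. On the high-fat diet the prenatal difference was 0.04 log2 units with a gap of 0.269.

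A small difference with the diet of the kind seen for Aqp8 and Aqp9 was common. Of 8457 genes, 966 (11.4%) were higher on the high-fat diet in both prenatal groups with signals apart by more than the summed STDEVs, and 785 (9.28%), Aqp1 among them, were lower. Lower signals in FR30 on both diets by the same rule were found for 453 genes (5.36%), Aqp8 among them, and higher ones for 323 genes (3.82%), Aqp1 among them. At 1.5-fold in both prenatal groups, 0.958% of genes were higher and 0.840% lower on the high-fat diet, and 0.236% were lower in FR30 on both diets, with no aquaporin among any of these.

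Aqp11, an aquaporin of the endoplasmic reticulum whose loss gives polycystic kidneys in mice, had diet signals apart by more than the summed STDEVs in control but not in FR30 offspring. Its signal was 1978.5 ± 48.5 in control standard, 1563.5 ± 70.4 in control high-fat, 1718 ± 89.2 in FR30 standard and 1772.5 ± 24.9 in FR30 high-fat. Control standard was the highest sample, apart from the next by more than the summed STDEVs, and the others each lay within 1 summed STDEV of their neighbour in the order. FR30 was 1.17-fold lower than control on the standard diet and 1.15-fold higher on the high-fat diet, with gaps of 1.89 and 2.19 summed STDEVs.

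In control offspring the high-fat signal of Aqp11 was 0.37 log2 units lower (-0.37), with a gap of 3.49 summed STDEVs. In FR30 offspring it was 1.04-fold higher, with a gap of 0.481. The difference between both diet differences was 0.42 log2 units, or 1.34-fold, and 0.38 log2 units in the non-normalized table. With 1 sample per group this contrast was not tested.

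Aqp3, an aquaglyceroporin known from skin and from the collecting duct of the kidney, was detected in all samples near the background. Its signal was 205 ± 2.04 in control standard, 202.5 ± 9.82 in control high-fat, 211 ± 15.5 in FR30 standard and 211 ± 13 in FR30 high-fat. The intervals of 1 STDEV of all 4 samples overlapped, and its detection p-values ran from 0.00606 to 0.0109.

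Aqp4, the main water channel of astrocytes in the brain, was not detected in any sample. Its signals of 152 ± 3.26, 164 ± 1.52, 148 ± 2.72 and 156.5 ± 8.58 in the same sample order lay around the negative control mean. Control high-fat still stood above control standard by a gap of 2.49 summed STDEVs, so this measure can also part signals at background level. Its detection p-values ran from 0.216 to 0.685.

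Aqp7, the glycerol channel of fat cells, was detected in FR30 standard alone. Its signal was 160.0 ± 11.1 in control standard, 158 ± 3.56 in control high-fat, 229.5 ± 103 in FR30 standard and 173 ± 6.06 in FR30 high-fat. The detection p-value was 0.00364 in FR30 standard and lay between 0.105 and 0.367 in the other samples. The STDEV of FR30 standard was 45.1% of its signal, and its interval overlapped those of all other samples. Between the high-fat samples, FR30 stood above control by a gap of 1.53 summed STDEVs, with Aqp7 detected in neither.

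Because the other samples were not detected, the Aqp7 folds are bounds under the processing used. They were 2.48-fold higher in FR30 than in control on the standard diet and 2.23-fold lower on the high-fat than on the standard diet in FR30. These are not strict lower limits: the first used the lowest value counted as detected, and the second the undetected sample's own value. With detection set at a p-value under 0.01 they were 1.03 and -1.02 log2 units. The gaps were 0.607 and 0.520 summed STDEVs, so neither exceeds the STDEVs. The size of these bounds depended on the background step: the first was 1.31 log2 units, 0.47 without background correction and 2.24 with the negative control mean subtracted, and the second was -1.16, -0.41 and -1.99. In the non-normalized table Aqp7 stood at 158, 161, 164 and 178 and was not detected in any sample, with detection p-values of 0.315, 0.365, 0.152 and 0.108. The Aqp7 value of FR30 standard thus rests on the normalized table alone.

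Aqp7 and Aqp3 are near neighbours in the rat genome, with 1 annotated gene between them in RefSeq. Aqp3 had a signal of 211 in both FR30 samples, while that of Aqp7 was 229.5 in FR30 standard and 173 in FR30 high-fat.

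Of the family outside the list, Aqp2, the vasopressin-controlled channel of the kidney, Aqp6 and Mip, the lens channel, were not detected in any sample. Aqp5, the channel of salivary and lacrimal glands, had signals of 182, 179, 175 and 174 and was detected in control standard alone, at a detection p-value of 0.0449. Its intervals overlapped in all comparisons.

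**Figure D2:**
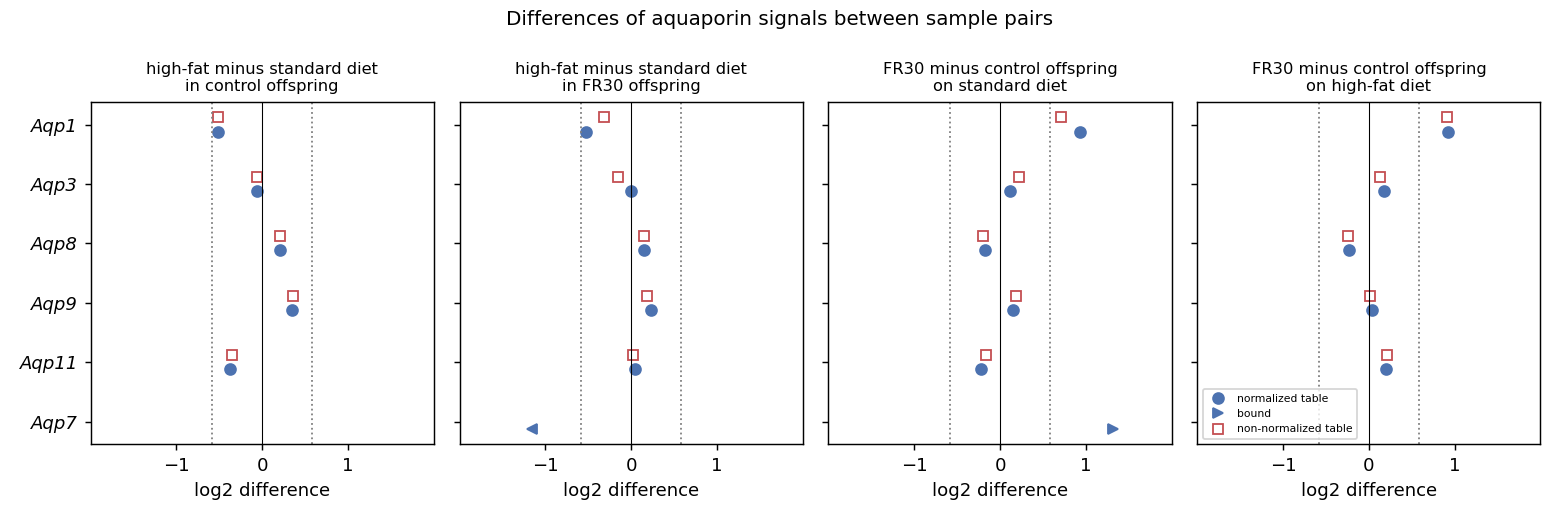
Log2 difference of each aquaporin (x axis, log2 units) in the 4 comparisons between samples, as circles from the normalized table, triangles for bounds and open squares from the non-normalized table, with 1.5-fold dotted. Aqp1 passes the dotted line in both prenatal comparisons in both tables, Aqp7 does so as a bound in the normalized table alone, and the others lie inside it.

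Counted over the list, 0 of 5 aquaporins compared were past 1.5-fold for the high-fat diet in the control group, where 2.62% of 9466 genes were higher and 3.40% lower, 6.02% in all. The non-normalized table gave 0 of 5 as well, beside 5.65% of its genes. In FR30 offspring 1 of 6 was lower on the high-fat diet, the bound of Aqp7, and none higher, beside 3.40% lower, 3.87% higher and 7.26% in all of 9541 genes. The non-normalized table gave 0 of 5, beside 6.97% of its genes. Between FR30 and control on the standard diet 2 of 6 were higher, Aqp1 and Aqp7, and none lower, beside 2.12% higher, 2.24% lower and 4.36% in all of 9520 genes. Aqp7 entered this count and that of the diet in FR30 offspring only through its detection in FR30 standard. It could therefore only come out higher in that sample, and its place in these counts is no separate support. The non-normalized table gave 1 of 5, Aqp1, beside 3.52%. On the high-fat diet 1 of 5 was higher, Aqp1, and none lower, beside 1.88% higher, 1.59% lower and 3.47% in all of 9430 genes. The non-normalized table again gave 1 of 5, Aqp1, beside 3.20%. For the difference between both diet differences none of the 5 aquaporins detected in all samples was past 2-fold, beside 2.18% of 8457 genes.

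The median log2 difference of these 5 aquaporins was -0.06 and 0.05 for the diet in control and FR30 offspring, and 0.12 and 0.18 for FR30 on the standard and high-fat diet. The medians of all 8457 genes lay between -0.01 and 0.01. Every diet comparison shares a sample with every prenatal comparison, so those values are not independent of each other.

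One sample stood apart in its STDEVs. In FR30 standard 116 detected rows had a STDEV over 20% of the signal, against 1 row in control standard and 0 in each high-fat sample. Genes of fat cells and of skeletal muscle were among them. Fabp4, the fatty acid binding protein of fat cells, had signals of 246.5, 245, 3020 and 247 in the same sample order, and its STDEV in FR30 standard was 1.63 times its signal, more than the 1.41 times that 2 values could give.

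Of 12 adipocyte markers on the array, 7 were detected in all samples and 2 in none. Their summed signal was 4072.5, 4697.5, 11649 and 4678 in the same sample order, and 9 of 10 compared were higher in FR30 than in control on the standard diet. Where FR30 standard was not used 8 were compared, and markers that entered through it could only come out higher there. Adipoq, the hormone adiponectin, read 183, 174, 401 and 186. Of 7 adipocyte markers compared in the non-normalized table, 1 was higher and 1 lower there. Aqp7 was detected in this sample alone, and the part of adipocyte RNA in its signal was not tested.

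Of 11 skeletal muscle markers 2 were detected in all samples, and their summed signal was 1870, 1813, 2704 and 1821.5 over all 11. In FR30 standard 6 of 8 compared were higher than in control standard, while 2 were compared where FR30 standard was not used. The rest entered through their detection in FR30 standard, so they could only come out higher there, and this count is no separate support. Acta1, skeletal muscle actin, read 172, 164, 476 and 162, and Ckm, muscle creatine kinase, 163, 157.5, 342 and 154. Of the muscle markers, 0 of 2 compared were higher there in the non-normalized table, and Acta1 and Ckm were not detected in any sample. Aqp1 was also higher in FR30 high-fat, where the summed adipocyte and muscle signals lay at 4678 and 1821.5, and its STDEV there was 1.11% of the signal. In that comparison 1 of 8 adipocyte markers was higher in both tables, Cidea, a lipid droplet protein, at 1.58-fold, and Cidea is 1 of the 14 genes higher in FR30 on both diets. The comparison of Aqp1 between high-fat samples does not use the FR30 standard sample. The part of fat or muscle RNA in the Aqp1 signal of any sample was not tested.

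**Figure D3:**
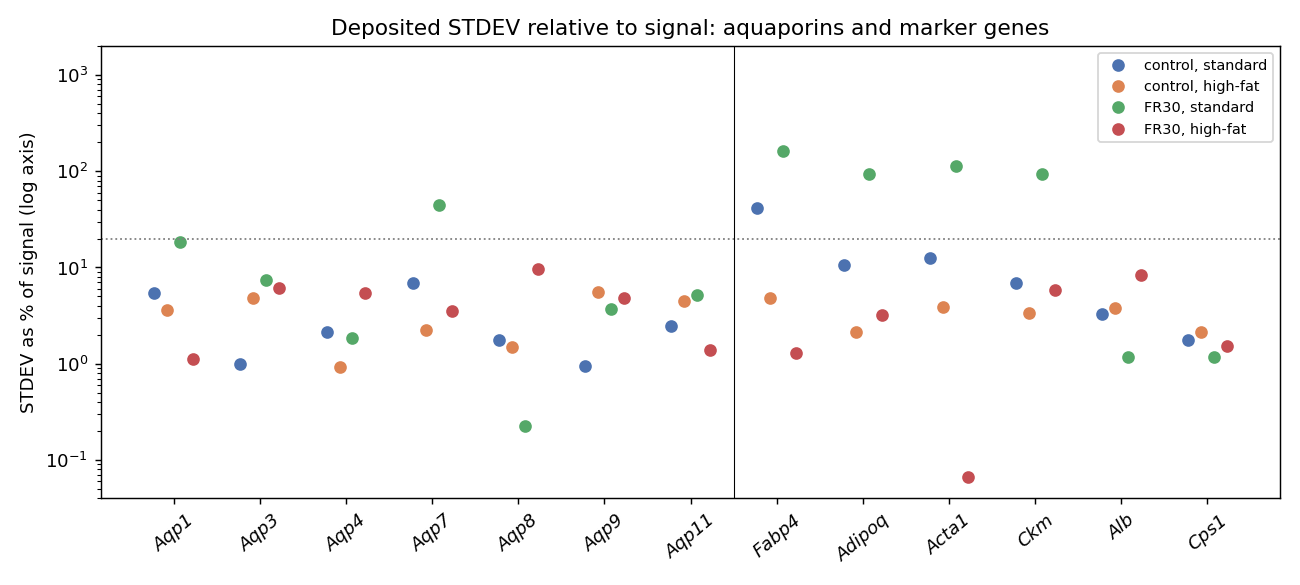
Deposited STDEV as a percent of the signal (log axis) for the aquaporins, left, and for marker genes, right, 1 point per sample, with 20% dotted. In FR30 standard Aqp7 at 45.1% lies above the line with Fabp4, Adipoq, Acta1 and Ckm, Aqp1 at 18.3% lies just under it, and the hepatocyte genes Alb and Cps1 lie below it in all samples.

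The cells known to hold AQP1 were followed by their markers. Of 8 endothelial markers 5 were detected in all samples and 3 in none, and none of 5 compared passed 1.5-fold in any of the 4 comparisons. Their summed signal was 2670, 2668, 3050 and 2686, highest in FR30 standard and nearly level in the others. The defining endothelial gene Cdh5 was not detected in any sample, at signals between 147 and 153, and Pecam1 was not found under its symbol.

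Of 9 bile duct cell markers 5 were detected in all samples, and Krt19, a bile duct keratin, read 235, 252, 273 and 285. Their summed signal was 2443, 2716, 2534 and 2568. Spp1, a secreted phosphoprotein, was 1.92-fold higher with the diet in control offspring and 1.53-fold lower in FR30 than in control on the high-fat diet, and no other marker of the list passed 1.5-fold in any comparison. Krt19 was 1.38-fold and 1.29-fold higher in FR30 on the standard and the high-fat diet. The list's median in these comparisons was 0.20 and -0.18 log2 units, so on the high-fat diet Krt19 went against it.

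Red cell markers were higher on the high-fat diet, where Aqp1 was lower. Of 8 on the array, 3 of 4 compared were higher with the diet in control and 4 of 4 in FR30 offspring, and the summed signal was 11796, 19010, 12163 and 19933. Hbb, the beta chain of haemoglobin, read 10567.5, 17564.5, 10911.5 and 18345. Between FR30 and control on the high-fat diet 1 of 4 was higher, as Aqp1 was: Ahsp, which stabilizes the alpha chain of haemoglobin, at 1.71-fold, and on the standard diet none was. The part of any of these cells in the Aqp1 signal was not tested.

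The tissue label fitted its markers, since 9 of 9 hepatocyte markers were detected in all samples and none passed 1.5-fold in any comparison. Alb, serum albumin, read 45364, 42127, 43006 and 37726. Of markers of hepatocytes near the central vein, 3 of 7 compared were higher with the diet in control and 5 of 7 in FR30 offspring, Slc1a2, a glutamate transporter, at 1.88-fold and 3.80-fold. Of 8 markers of hepatocytes near the portal vein, Sds, serine dehydratase, was the only gene past 1.5-fold, at 3.25-fold and 1.79-fold lower with the diet and 1.65-fold lower in FR30 on the standard diet. Of 7 macrophage markers compared, Vsig4, a complement receptor of Kupffer cells, at 1.51-fold higher in FR30 on the standard diet, was the only 1 past 1.5-fold in any comparison, and it had no value in the non-normalized table. Of 6 stellate and fibroblast markers compared, Lum and Des were lower with the diet in FR30 offspring, Col1a1 was higher in FR30 on the standard diet by a bound, and Lum was lower in FR30 on the high-fat diet. Only the last of these passed 1.5-fold in the non-normalized table, and in FR30 standard the STDEVs of Lum and Col1a1 were 24.3% and 29.0% of their signals.

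By their median, the genes that handle glycerol beside Aqp9 and Aqp7 lay lower on the high-fat diet, though not every gene did. Of 10 genes of glycerol uptake and use, all detected in all samples, none passed 1.5-fold for the diet in control offspring, and the list's median was -0.28 log2 units. In FR30 offspring 0 were higher and 2 lower, with a median of -0.25. The lower genes were G6pc, the glucose-6-phosphatase that releases glucose, at 1.78-fold, and Gpd1, glycerol-3-phosphate dehydrogenase, at 1.51-fold. The non-normalized table gave 1 higher and 2 lower of 10 in FR30 offspring.

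Gpd1 read 6140 ± 210, 5067 ± 162, 6049 ± 362 and 4040 ± 267 in the same sample order. Both high-fat signals lay below both standard-diet signals, the reverse of the order seen for Aqp9. The prenatal comparisons of this list gave 0 higher and 1 lower on the standard diet, Gpd2, the mitochondrial glycerol-3-phosphate dehydrogenase, at 1.53-fold, and none on the high-fat diet. With the diet Gpd2 went against the list's median, at 682 ± 23.7, 886 ± 24.9, 493 ± 72.6 and 662 ± 22.4. It was higher on the high-fat diet in both prenatal groups, short of 1.5-fold, and past 1.5-fold in FR30 offspring in the non-normalized table. The glycerol kinase gene was not found under its symbols Gk or Gyk, so it could not be followed.

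Among 10 genes of fat breakdown, which releases glycerol, 4 of 9 compared were higher and 1 was lower in FR30 than in control on the standard diet. The higher ones included Lpl, lipoprotein lipase, at 3.44-fold, and Lipe, hormone-sensitive lipase, at 2.67-fold. Lpl read 1078.5 ± 31.1, 1339 ± 19.5, 3387 ± 4196 and 1479 ± 131, so its STDEV in FR30 standard exceeded the signal. In the non-normalized table Lpl and Lipe were 1.14-fold and 1.04-fold lower in that comparison.

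Mgll, monoglyceride lipase, which frees the glycerol, was lower in FR30 on both diets, at 673 ± 22.9, 618 ± 12.1, 466 ± 5.18 and 426 ± 16.2. This is 1.62-fold on the standard and 1.67-fold on the high-fat diet. No gene of the list passed 1.5-fold with the diet in control offspring. In FR30 offspring 4 of 9 were lower on the high-fat diet, a comparison that holds the FR30 standard sample too. The non-normalized table gave the opposite there, 2 of 8 higher and 0 lower, with Lpl 1.65-fold higher in place of 2.42-fold lower.

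Of 12 transport genes of the bile-facing and blood-facing hepatocyte membranes, 1 was higher and 1 lower with the diet in control offspring and 1 lower in FR30 offspring. Abcg5, part of the sterol exporter, read 1008 ± 36.4, 2113 ± 23.0, 1629 ± 59.8 and 1772 ± 84.4 and stood 2.27-fold higher with the diet in the control group. Abcb11, the bile salt export pump, read 265 ± 11.3, 217.5 ± 8.31, 254 ± 3.93 and 248 ± 2.06 and was 1.60-fold lower in that comparison. Its detection p-values were 0.0205, 0.0238, 0.0622 and 0.00543, which do not follow the order of its signals. The detection status by which Abcb11 was compared is thus uncertain. It had no value in the non-normalized table, where 0 of 9 transport genes compared were lower with the diet in the control group. Aqp8, which shares the bile-facing membrane with Abcg5 and Abcb11, was 1.16-fold higher with the diet in the control group.

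In FR30 offspring Abcg2, an exporter of drugs and urate, was 2.04-fold lower on the high-fat diet. Between FR30 and control, Abcg5 and Abcg2 were higher on the standard diet, by 1.72-fold and 1.56-fold, and Atp8b1, a phospholipid flippase, was 1.57-fold lower on the high-fat diet. Abcb4 read 696 ± 14.8, 690 ± 18.2, 480 ± 26.8 and 671 ± 25.7, lowest in FR30 standard. It was not compared, since its detection p-values of 0.475 to 0.482 counted as not detected although the signals lay far above the background.

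The 12 regulators on the list were genes of insulin, glucagon, glucocorticoid and nuclear receptor signalling. Pparg, a nuclear receptor known to raise Aqp7 in fat cells, stood 1.66-fold higher with the diet in control and 1.67-fold lower in FR30 offspring. Pparg read 337 ± 16.3, 471 ± 19.3, 432 ± 77.0 and 314 ± 4.01, so control high-fat was highest and FR30 high-fat lowest. The difference in FR30 offspring was 1.41-fold in the non-normalized table, short of 1.5-fold. Between FR30 and control on the high-fat diet it was 1.89-fold lower. Foxo3, a forkhead factor, had bounds of 1.68-fold lower with the diet in control offspring and 1.71-fold lower in FR30 on the standard diet. Both rest on the lowest value counted as detected in the other sample, so they are not strict lower limits. Both were under 1.5-fold in the non-normalized table. Besides these, no regulator of 7 to 9 compared passed 1.5-fold in any comparison. Foxa2 was not compared, since it counted as not detected at deposited detection p-values of 0.361, 0.354, 0.138 and 0.142. Its signals of 1455 ± 21.6, 798 ± 14.3, 893 ± 25.0 and 1082.5 ± 67.9 lay far above the background, so these p-values do not match them.

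The genes of urea formation, whose product passes through AQP9, did not pass 1.5-fold in any comparison, with 8 of 9 compared each time. Cps1, which starts the cycle, read 18150 ± 324, 18590 ± 396, 17196 ± 200.2 and 21666 ± 333. It was highest in FR30 high-fat, 0.38 log2 units above FR30 standard.

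Of 8 genes of water and osmotic balance, Sgk1, a kinase induced by glucocorticoids and cell shrinkage, was lower on the high-fat diet in both prenatal groups, by 1.90-fold and 1.66-fold. Its signal was 4971 ± 41.1, 2681 ± 18.9, 4885 ± 90.8 and 3006 ± 125. Both high-fat signals lay below both standard ones, an order shared by none of the aquaporins, since the Aqp1 signal of FR30 high-fat lay above that of control standard.

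Of 12 genes of hydrogen peroxide handling, 1 passed 1.5-fold with the diet in control offspring and none in the other comparisons. This was Txnrd1, thioredoxin reductase, which was 1.52-fold higher. Cat, catalase, read 27355 ± 1401, 21681.5 ± 1576, 22109 ± 740 and 23469 ± 122 and did not pass 1.5-fold in any comparison.

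Only Aqp1 had a log2 signal spanning at least 1.5-fold among the aquaporins detected in all samples, at 2.73-fold. The genes with the most similar profile, by Euclidean distance between log2 values centred on each gene's mean over the 4 samples, were Tspo at 0.370, Cd2bp2 at 0.373 and LOC362882 at 0.409. Tspo, the translocator protein of the outer mitochondrial membrane, read 300.5, 283, 538 and 349, and its STDEV in FR30 standard was 82.0% of the signal. Cd2bp2, which binds the tail of the CD2 antigen, read 831, 789, 1409 and 1154, with a STDEV of 2.73% in FR30 standard. LOC362882, annotated in the file as similar to lysozyme C, read 449, 297, 670.4 and 430.0. In Tspo, Cd2bp2 and LOC362882 alike FR30 standard was the highest sample and control high-fat the lowest, as for Aqp1. With 4 samples many genes can share an order, and the likeness is a description.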

How the data were processed

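Liver RNA of 4 groups with 1 deposited sample each was measured on Illumina arrays. Per the submitters' processing notes, GenomeStudio was used; its version and the normalization method are not stated in those notes. Per the file headers, the authors' normalized table gives each sample an intensity (signal), its STDEV and its detection p-value. The series matrix held the same deposited intensity, within 0.01, for 21791 rows. The authors also deposited a non-normalized table of intensity and detection p-value. Matched by identifier, its log2 values correlated with the normalized ones at r from 0.0587 to 0.0658 across rows, so it was put to genes by row order (20833 rows), where the alignment itself uses the signals.

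In limma 3.58.1 with R 4.3.3, a normal-exponential background (offset 16) was fitted from detection p-values, then quantile normalization and log2 were applied. Later steps used Python 3.11.15, numpy 2.4.6, pandas 2.3.3, numba 0.67.0 and matplotlib 3.10.9. Symbols were updated through RefSeq (GRCr8). Of several rows of a gene, the brightest was kept. A gene detected on 1 of 2 samples got a bound, taking for the undetected sample its lowest detected value, or the gene's value where that was greater. Such a bound could only put the detected sample higher and was dropped otherwise. No test, SE or p-value was computed. The functions were tested on simulated data. The members and the 18 gene lists were chosen with earlier results of these data known. Named were the members, a few set genes, up to 2 genes per list and comparison with the largest differences, and the 3 nearest profiles. The 9 alternatives are given at the end.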

Additional observations from a re-analysis of the deposited data

Results flagged for a closer look

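Aqp11 had diet differences of opposite sign in control and FR30 offspring, -0.37 and 0.05 log2 units, and prenatal differences of opposite sign on the standard and high-fat diet, -0.22 and 0.20 log2 units. Both contrasts are the same 4 values, and each differs by 0.42 log2 units. The difference was not tested, since each group had 1 sample.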

How the results depend on the processing

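Of 45 counts of aquaporins under 9 alternatives, 35 stayed within 1.5 times the reported count and 10 did not. Without background correction 0 aquaporins passed 1.5-fold for the diet in FR30 offspring, 1 (Aqp1) for FR30 on the standard diet and 0 for FR30 on the high-fat diet, since folds on signals that keep their background are smaller. In the non-normalized table by row order the first 2 of these counts were 0 and 1 (Aqp1), and with intervals of 2 STDEV required apart both were 0. A threshold of 1.3-fold gave 1 (Aqp1) for the diet in control and 2 (Aqp1 and Aqp7) in FR30 offspring. Without the detection filter 1 aquaporin, Aqp7, passed 2-fold in the difference of differences. The FR30 difference of Aqp1 ran from 0.67 to 0.97 log2 units on the standard and from 0.58 to 0.97 on the high-fat diet, and its diet difference from -0.55 to -0.31 in control and from -0.55 to -0.32 in FR30 offspring. The bound of Aqp7 ran from 0.47 to 2.24 for FR30 on the standard diet and from -1.99 to -0.41 for the diet in FR30 offspring. Of 152 single values, 0 reversed a called direction. The 3 that moved by more than the STDEV of the difference were of Aqp1, at -0.31 and 0.58 without background correction and 0.80 with an offset of 50. No paired analysis was possible because each group had 1 deposited sample. Aqp3, Aqp4 and Aqp7 lay near the background, where differences in level are least measurable.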
